A study of Rattus norvegicus with 6 samples.

Results

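This account follows 40 genes of the endoplasmic reticulum (ER) that fold, process and clear secreted and membrane proteins, or that report on that work through the unfolded protein response. Members were chosen by name, as the probe sets whose single gene symbol is one of the 40, with earlier symbols of the same gene counted. Of these, 39 genes were found, on 61 of 31099 probe sets, and Ern1 is not analysed here. All 39 had at least 1 probe set that passed the filter on low signals, the brightest of each being above it on all 6 arrays, against 9540 of 14217 genes on the array.

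Kidney RNA came from male rats of 2 strains, Dahl salt-sensitive (Dahl S) and Lewis, with 3 rats and 3 arrays each. Every rat, Lewis controls included, ate an 8% NaCl diet for 8 weeks from 5 weeks of age, so no group on a normal diet is compared and a strain difference cannot be told apart from a difference in the response to salt. Dahl S rats are a strain bred for a rise in blood pressure on salt, and Lewis rats are an inbred laboratory strain. The tissue is whole kidney, in which fewer cells of a type and less RNA per cell cannot be told apart.

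Proteins enter the ER through the Sec61 channel, lose their signal peptide, and fold with the help of chaperones such as BiP (Hspa5) and GRP94 (Hsp90b1), lectin chaperones (Canx, Calr) and protein disulfide isomerases. Proteins that fail to fold are carried back to the cytosol and degraded, a route called ER-associated degradation. When unfolded protein builds up, the membrane sensors ATF6, IRE1 (Ern1) and PERK (Eif2ak3) start the unfolded protein response: ATF6 is cut to a transcription factor, IRE1 splices Xbp1 mRNA, and PERK slows translation and favours ATF4. The array measures mRNA level only and does not separate spliced from unspliced Xbp1.

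The classical DNA site for ATF6 and XBP1, acting with the CCAAT-binding factor NF-Y, is the ER stress response element, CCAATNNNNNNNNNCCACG. It was searched on both strands in the 250 bases before the RefSeq start of each gene (build GRCr8), a window available for 32 of the 39 members. An exact match was found in 7 of the 32 (21.9%) and in 21 of 27457 promoters of the whole table (0.0765%). The matches are shown because they mark members of 1 known regulatory class that the arrays can then compare; fixed letters are in capitals, and each element is written 5′ to 3′ on the strand that reads CCAAT first.
Hspa5: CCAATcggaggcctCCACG
Hsp90b1, far element: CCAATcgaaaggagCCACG
Hsp90b1, near element: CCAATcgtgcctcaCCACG
Calr: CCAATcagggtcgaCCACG
Canx: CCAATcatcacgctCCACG
Creld2: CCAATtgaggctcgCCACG
Dnajc3: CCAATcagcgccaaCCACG
Xbp1: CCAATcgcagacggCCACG

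A shorter variant, ER stress response element II (ATTGG, then any base, then CCACG), was present in Herpud1 and Hyou1, 2 of 32 member promoters (6.25%) and 12 of 27457 in all (0.0437%).
Herpud1: ATTGGgCCACG
Hyou1, far element: ATTGGcCCACG
Hyou1, near element: ATTGGgCCACG
The unfolded protein response element TGACGTGG was found only in Hyou1 among the member promoters (3.12%, against 0.55% of all promoters), where it overlaps the far element. The amino acid response element core TGATGNAA was found only in Herpud1 (3.12%, against 3.27% of all). The CCAAT box alone, which the first element contains and the second holds in reverse, was present in 26 of 32 member promoters (81.2%) and 34.3% of all. A match is a description of letters and does not show that a factor binds there.

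The promoters of Hspa5 and Hsp90b1 are given whole, because both carry the element and both genes differed between the strains past the threshold. Capitals mark exact matches to the ER stress response element, and inexact matches were not searched for.
Hspa5, chr3:38452766-38453015, plus strand, GRCr8: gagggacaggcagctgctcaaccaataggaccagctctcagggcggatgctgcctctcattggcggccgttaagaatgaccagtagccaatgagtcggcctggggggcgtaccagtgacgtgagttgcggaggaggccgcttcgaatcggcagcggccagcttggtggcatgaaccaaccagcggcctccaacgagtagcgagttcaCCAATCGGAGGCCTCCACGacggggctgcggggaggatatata
Hsp90b1, chr7:23012294-23012543, minus strand, GRCr8: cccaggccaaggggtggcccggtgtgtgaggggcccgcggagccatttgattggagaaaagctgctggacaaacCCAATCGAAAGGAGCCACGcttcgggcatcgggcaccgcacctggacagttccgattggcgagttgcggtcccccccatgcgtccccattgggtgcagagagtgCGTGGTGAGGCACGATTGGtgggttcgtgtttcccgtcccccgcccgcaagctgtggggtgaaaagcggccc
The Hspa5 element begins at -43, the closest to the start of the elements printed above. The Hsp90b1 elements begin at -176 and -72, and the near one lies on the opposite strand.

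**Figure D1:**
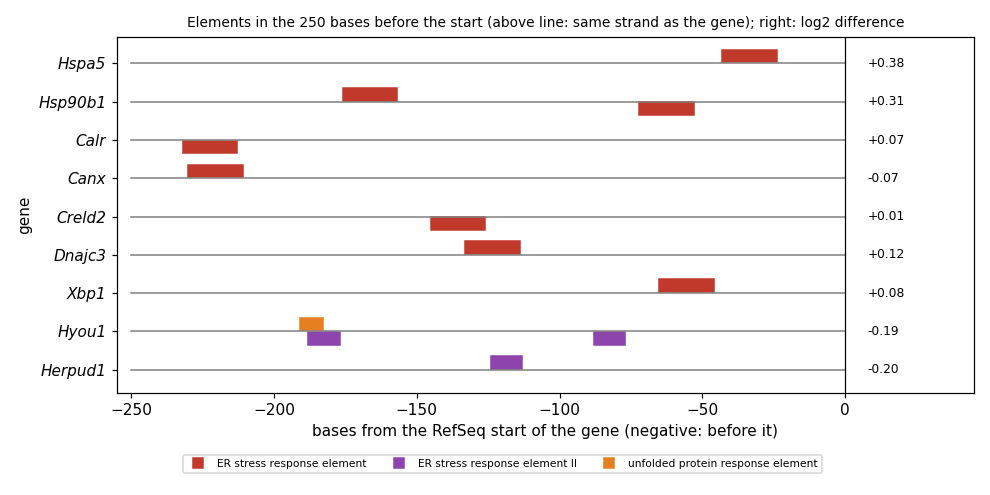
Positions of response elements in the 250 bases before the start of the 9 member genes that hold one. The horizontal axis is distance in bases from the RefSeq start, boxes above a line lie on the gene's strand and boxes below it on the other, and the value at the right is the Dahl S minus Lewis difference in log2(signal + 16); the 9 genes with an element range from -0.20 (Herpud1) to 0.38 (Hspa5).

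The arrays differed in brightness before normalization: the median deposited signal was 38.9 to 69.7 for Lewis, lowest on array 1, and 63.4 to 81.2 for Dahl S. Signals were therefore quantile normalized, and all signals below are normalized linear values unless called deposited. Differences are Dahl S minus Lewis in log2(signal + 16), which understates the change of dim genes, with the standard error (SE), the 95% interval and the Benjamini-Hochberg adjusted p of limma over 15797 probe sets; the threshold is 0.05. Kidney markers were bright, with Slc34a1 of the proximal tubule at 7190 to 8450 and Umod of the thick ascending limb at 9490 to 9710 over the 6 arrays. The adrenal enzyme gene Cyp11b1 lay between 1.75 and 10.2. Hsd3b1 of the same list read 33.5 to 41.2 in Lewis and 51.3 to 67.3 in Dahl S, and neither gene was tested. The summed signal of the 3 adrenal cortex markers on the array was 38.9 to 60.4 in Lewis and 63.1 to 95 in Dahl S.

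A small group of chaperone, isomerase and channel genes was higher in Dahl S kidneys. Of 39 member genes, each taken at its brightest tested probe set, 6 were higher in Dahl S (15.4%), 1 was lower (2.56%) and 32 did not pass. Among all 9540 genes tested, 9.04% were higher and 7.62% were lower, and among the 1364 genes with a mean signal of 1000 or more, the level of several members, 11.8% and 13%. The genes that rose were Hspa5, Hsp90b1, Sdf2l1, Pdia3, Pdia6 and Sec61b, and the gene that fell was Sel1l. Every difference was small, from -0.34 to 0.38, and the median of the members was 0.11 against 0.00 over all genes. Strain ranges did not overlap in 12 members with Dahl S above (30.8%, against 18.4% of all genes) and in 4 with Lewis above (10.3%, against 16.7%). The counts depended on scaling. When each array was only scaled to a common median, 2 members were higher (Sdf2l1 and Sec61b) and 0 lower, and in the deposited values without normalization 0 passed in either direction, with a member median of 0.52 beside 0.41 over all genes. Without Lewis array 1, the dimmest before normalization, 7 members were higher and 2 lower (Ssr3 and Herpud1 were added).

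**Figure D2:**
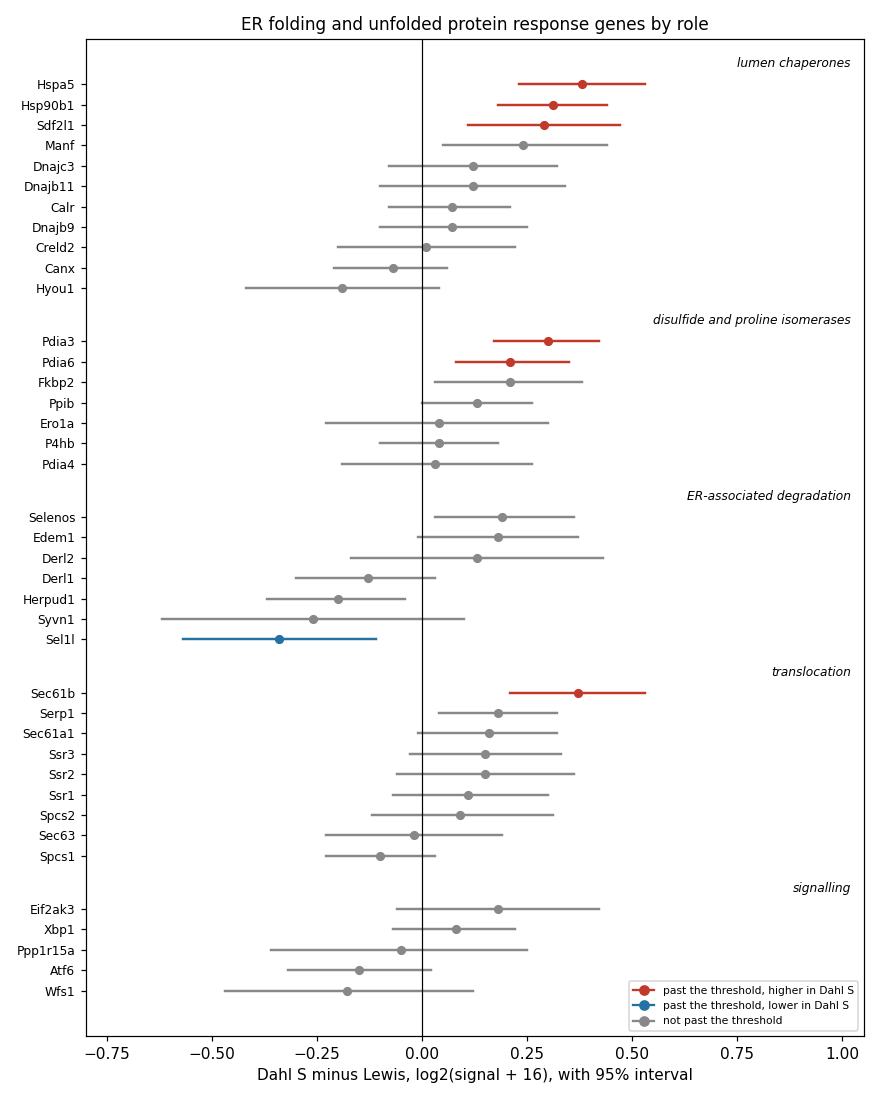
Dahl S minus Lewis difference in log2(signal + 16) of the 39 member genes, grouped by role and ordered by size within each role, with the 95% interval of the limma fit (3 arrays per strain). Differences run from -0.34 (Sel1l) to 0.38 (Hspa5), and the 6 genes past the threshold on the higher side lie among chaperones, disulfide isomerases and the translocation channel.

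Chaperones of the ER lumen and membrane held the largest member difference. Hspa5 encodes BiP, the Hsp70 of the ER, which binds nascent chains and holds the sensors inactive. The Lewis rats, in the order 1, 2 and 3, read 2950, 2810 and 3400, and the Dahl S rats 3980, 4040 and 3930. All Dahl S values lay above all Lewis values, and the Lewis arrays were spread more widely (SD 305, n = 3) than the Dahl S arrays (SD 55.1, n = 3). Hspa5 was higher in Dahl S by 1.31-fold (0.38, SE 0.07, 95% interval 0.23 to 0.53, adjusted p = 0.0025; 0.25 and adjusted p = 0.083 with scaling to a common median). Its deposited signals before normalization were 1875.2, 3479 and 3143.5 in Lewis and 4416.7, 4814.3 and 4053.1 in Dahl S.

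Hsp90b1 encodes GRP94, the Hsp90 of the ER, a folding chaperone for integrins and other secreted clients. Lewis arrays 1, 2 and 3 gave 2180, 2290 and 2080, and Dahl S arrays gave 2750, 2650 and 2740. The ranges were separate and each spanned less than the gap between them. The difference was 0.31 (SE 0.06, 1.24-fold, adjusted p = 0.0038; 0.21 and adjusted p = 0.14 with scaling to a common median). Sdf2l1, a partner of the BiP cochaperone ERdj3, read 351, 357 and 348 in Lewis and 461, 418 and 423 in Dahl S. Lewis arrays were nearly level, and Dahl S array 1 was the highest. Sdf2l1 rose by 0.29 (SE 0.08, 1.22-fold, adjusted p = 0.035), which no longer passed when any single array except Lewis array 1 was left out (0.25 to 0.31, adjusted p = 0.059 to 0.16).

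The other 8 chaperone genes did not pass, with differences from -0.19 to 0.24. Manf, a small ER protein secreted on calcium loss, came nearest: 568, 672 and 632 in Lewis against 704 to 808 in Dahl S, with separate ranges (0.24, SE 0.09, adjusted p = 0.091). The BiP cochaperone genes Dnajb11 (ERdj3) and Dnajc3 (P58IPK) each gave 0.12, and Dnajb9 (ERdj4) gave 0.07, all with overlapping ranges. The lectin chaperone genes differed by 0.07 for Calr and -0.07 for Canx, and their 95% intervals, -0.08 to 0.21 and -0.21 to 0.06, hold neither the 0.31 of Hsp90b1 nor the 0.38 of Hspa5. Creld2, an ER stress-inducible gene, gave 0.01. Hyou1, the nucleotide exchange factor GRP170 of BiP, gave -0.19 (SE 0.11, adjusted p = 0.26), the lowest of the chaperones. A dimmer Hyou1 probe set gave -0.42 with separate ranges, Lewis above, without passing (SE 0.15, adjusted p = 0.077). In this role 3 of 11 genes rose (27.3%, against 9.04% of all genes tested) and 0 fell (against 7.62%), with a median of 0.12. Among genes with a mean signal of 1000 or more, the level of Hspa5 and Hsp90b1, the shares were 11.8% higher and 13% lower.

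Disulfide and proline isomerases form and shuffle disulfide bonds or turn proline bonds. All 7 members had a positive difference, beside 51% of all genes tested. Of the 7, 2 passed the threshold (28.6%, against 9.04% higher among all genes), and the median was 0.13. Pdia3, known as ERp57, works with calnexin and calreticulin on glycoproteins. Its signal was 2710, 2510 and 2670 in Lewis and 3210, 3210 and 3270 in Dahl S. The Dahl S arrays agreed within a narrow range that lay above every Lewis array. Pdia3 was 1.23-fold higher (0.30, SE 0.06, adjusted p = 0.0037; 0.17 and adjusted p = 0.21 with scaling to a common median), and its dimmer probe set gave 0.19 (adjusted p = 0.33).

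Pdia6, known as P5, a BiP-associated disulfide isomerase, read 1630, 1560 and 1530 in Lewis and 1800, 1870 and 1800 in Dahl S, again without overlap. The difference of 0.21 (SE 0.06, 1.16-fold, adjusted p = 0.036) was the smallest that passed, and it passed in 5 of 15 alternative settings. The proline isomerase genes Fkbp2 and Ppib had separate ranges too, with Fkbp2 at 935 to 1100 in Lewis and 1130 to 1170 in Dahl S (0.21, SE 0.08, adjusted p = 0.099) and Ppib at 2310 to 2450 and 2510 to 2710 (0.13, SE 0.06, adjusted p = 0.17). A second bright probe set of Fkbp2 gave 0.20 (adjusted p = 0.099). P4hb, the abundant protein disulfide isomerase PDI, differed by 0.04 (95% interval -0.10 to 0.18), Pdia4 (ERp72) by 0.03 (-0.19 to 0.26), and Ero1a, the oxidase that recharges PDI, by 0.04 (-0.23 to 0.30).

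**Figure D3:**
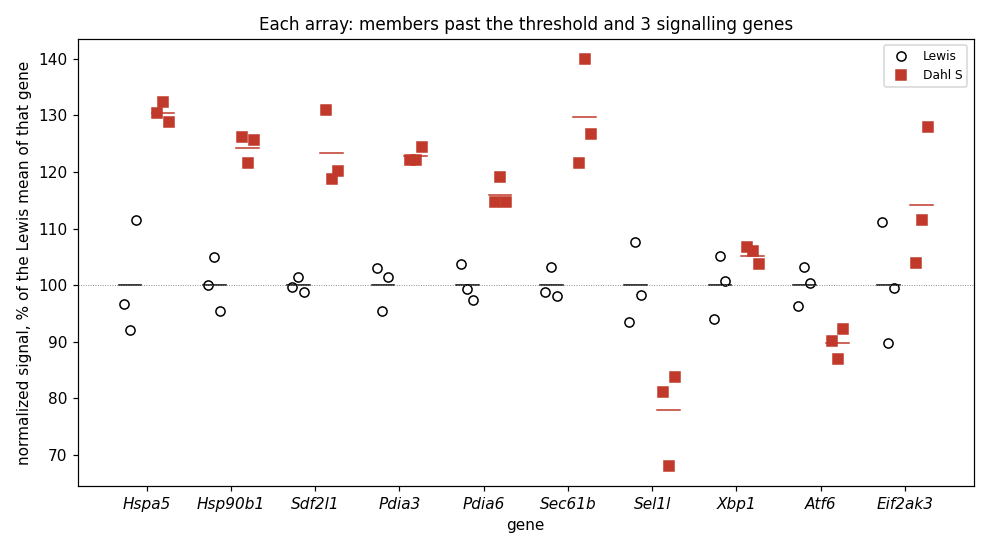
Normalized signal of 10 member genes on each of the 6 arrays, as a percentage of the Lewis mean of the same gene; open circles are Lewis, squares are Dahl S and short lines are strain means (n = 3). The 6 genes that rose have every square above every circle, Sel1l has every square below, and Xbp1 and Eif2ak3 overlap.

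Genes of ER-associated degradation gave 4 negative and 3 positive differences (42.9% positive, against 51% of all genes). In this role 0 of 7 members rose and 1 fell (14.3%, against 7.62% of all genes), with a median of -0.13. Sel1l, the scaffold of the Hrd1 ubiquitin ligase, read 258, 297 and 271 in Lewis and 224, 188 and 231 in Dahl S. Dahl S array 2 was the lowest, and the ranges were separate. Sel1l fell by 0.34 on the log2 scale (SE 0.11, 95% interval -0.57 to -0.11, adjusted p = 0.045). This call was lost without any 1 array other than Lewis array 1 (-0.26 to -0.39, adjusted p = 0.069 to 0.19), and in the deposited values the difference was 0.09, below the 0.41 shift of all genes.

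Other genes of this route lay on both sides of 0. Herpud1, an organizer of the ligase complex, was lower in Dahl S on every array, at 1170, 1400 and 1320 in Lewis and 1130, 1110 and 1130 in Dahl S, without passing (-0.20, SE 0.08, adjusted p = 0.095). Without Lewis array 1 it was called. Syvn1, the ligase Hrd1 itself, gave -0.26 with a wide error (SE 0.16, adjusted p = 0.32), since Lewis array 1 read 451 and the others 273 and 276. Derl1, a channel component, had separate ranges with Lewis above (-0.13, SE 0.08, adjusted p = 0.28), while its further probe sets gave 0.15 and 0.04. Selenos, which links derlins to the ATPase p97, had separate ranges with Dahl S above (0.19, SE 0.08, adjusted p = 0.10). Edem1, which extracts misfolded glycoproteins, gave 0.18 and Derl2 gave 0.13, with overlapping ranges.

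Translocation genes were mostly positive, with 7 of 9 differences above 0 (77.8%, against 51% of all genes) and a median of 0.15. The share past the threshold, 1 of 9 (11.1%), was near the 9.04% higher among all genes. Sec61b encodes the beta subunit of the Sec61 channel. Its signal was 967, 1010 and 960 in Lewis and 1190, 1370 and 1240 in Dahl S, with Dahl S array 2 the highest and no overlap. Sec61b was 1.29-fold higher (0.37, SE 0.07, 95% interval 0.21 to 0.53, adjusted p = 0.0052). It passed in 14 of the 15 alternative settings, all but the deposited values (0.77, adjusted p = 0.19), more than any other member that passed.

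The channel's alpha subunit gene Sec61a1 had separate ranges, 680 to 711 in Lewis and 748 to 828 in Dahl S, without passing (0.16, SE 0.08, adjusted p = 0.19), and a dimmer probe set gave -0.03. Serp1, a small protein that stabilizes membrane proteins at the channel, read 1970, 1870 and 2120 in Lewis and 2240, 2240 and 2300 in Dahl S (0.18, SE 0.06, adjusted p = 0.073). A dimmer Serp1 probe set gave -0.06 (adjusted p = 0.66). The translocon-associated genes Ssr1, Ssr2 and Ssr3 gave 0.11, 0.15 and 0.15 with overlapping ranges. The signal peptidase genes Spcs1 and Spcs2, whose complex cuts off signal peptides, gave -0.10 and 0.09, and Sec63, a J-domain partner of BiP at the channel, gave -0.02.

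None of the 5 signalling genes tested passed limma's threshold, and 0 had an unadjusted limma p under 0.05. Xbp1, the transcription factor gene whose mRNA is spliced by IRE1, read 1260, 1410 and 1350 in Lewis and 1430, 1420 and 1390 in Dahl S. The ranges overlapped, and the difference of 0.08 (SE 0.07, adjusted p = 0.49) had a 95% interval of 0.952-fold to 1.17-fold. Atf6, the cleaved sensor, read 595, 638 and 620 in Lewis and 557, 537 and 570 in Dahl S. Here the Lewis values were all above the Dahl S values, without passing (-0.15, SE 0.08, adjusted p = 0.21); a dim second probe set, at 47.4 to 71.0 over the arrays, was not tested.

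Eif2ak3, the PERK kinase, read 250, 202 and 224 in Lewis and 234, 251 and 288 in Dahl S, with overlap (0.18, SE 0.11, adjusted p = 0.30). Ppp1r15a, the GADD34 subunit that reverses PERK's effect on translation, was dim, with 119, 159 and 107 in Lewis and 133, 119 and 114 in Dahl S (-0.05, SE 0.14, adjusted p = 0.84). Wfs1, wolframin, an ER membrane protein that restrains ATF6, read 100, 99.8 and 80.8 in Lewis and 70.0, 84.1 and 89.0 in Dahl S (-0.18, SE 0.13, adjusted p = 0.42). The 95% interval of Eif2ak3, -0.06 to 0.42, holds a rise of the size seen in Hspa5, and those of Ppp1r15a (-0.36 to 0.25) and Wfs1 (-0.47 to 0.12) do not.

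Members with an ER stress response element included both large and small differences. Of the 7 members with the exact element, 2 rose (Hspa5 and Hsp90b1), 0 fell, and the median difference was 0.08. Of the 25 members with a promoter in the table and no exact match, 2 rose, 1 fell, and the median was 0.11. Pdia3 and Pdia6, which also rose, and Manf had no promoter in the table and so stand on neither side. Hyou1 and Herpud1, with the shorter element, gave -0.19 and -0.20. Outside the members, 14 further genes held the exact element. Of these 7 were tested, 1 rose (Hnrnpa3, an RNA-binding protein gene, 0.28, SE 0.07, adjusted p = 0.018) and 1 fell (Ero1b, an ER oxidase gene, described below). Because these sets are small and were described with the results known, no test was made of them.

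Probe sets of the same gene did not always give the same answer. Of the 39 genes, 13 had more than 1 tested probe set, 32 in all; in 6 of the 13 the differences had both signs, and in 4 some but not all probe sets passed. Ssr1 showed the widest split. Its brighter probe set read 734 to 897 in Lewis and 849 to 880 in Dahl S, while the other read 150, 173 and 166 in Lewis and 363, 277 and 309 in Dahl S. The second was higher in Dahl S by 0.89 (1.85-fold, SE 0.11, adjusted p = 0.00019) and passed in each of the 14 alternative settings in which it had a value, although the first gave 0.11 (adjusted p = 0.40).

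Sec63 split the other way: 2 tested probe sets gave -0.02 and 0.05, and the dimmest tested one read 175, 118 and 138 in Lewis and 104, 89.3 and 70.3 in Dahl S (-0.62, SE 0.16, adjusted p = 0.018; lost in 4 of 14 alternative settings, among them leaving out Dahl S array 2 or 3, at 0.054 and 0.093). A further Canx probe set read 1290, 1340 and 1340 in Lewis and 1150, 1060 and 1100 in Dahl S (-0.26, SE 0.07, adjusted p = 0.021; lost in 7 of 14 alternative settings), where the others gave -0.07 and 0.00. Counted by probe set, 7 of 58 tested member probe sets were higher and 3 lower, beside 8.5% higher and 7.75% lower among all 15797. These further probe sets were singled out after their values were seen, and where they lie along each transcript was not examined.

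**Figure D4:**
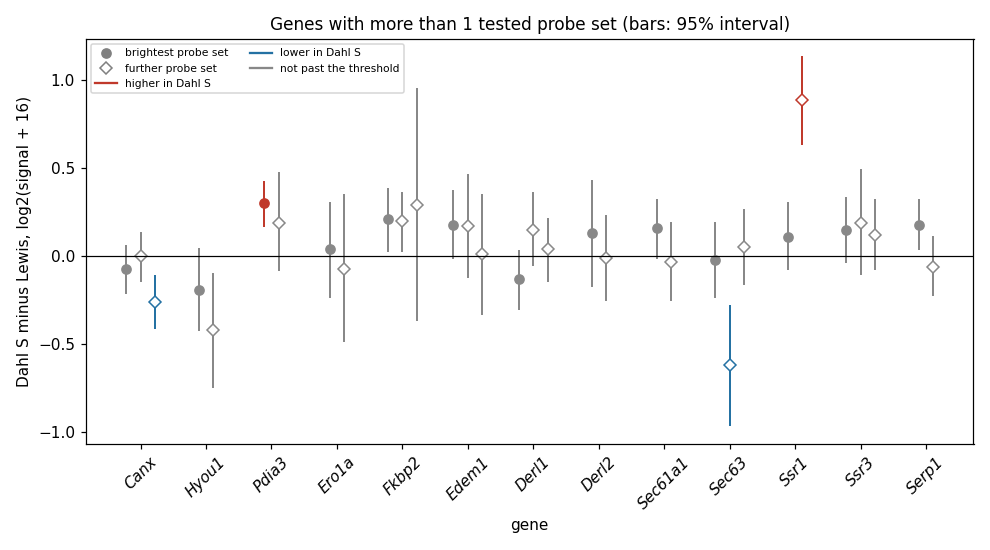
Dahl S minus Lewis difference in log2(signal + 16) for every tested probe set of the 13 member genes that have more than 1, with 95% intervals; filled circles are the brightest probe set of a gene and open diamonds are further ones. Ssr1, Sec63 and Canx have a further probe set past the threshold (0.89, -0.62 and -0.26) beside a brightest one that is not.

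Genes of the same pathways outside the 40 were taken from 6 fixed lists. Of 138 tested, 10 were higher (7.25%), 3 lower (2.17%) and 125 did not pass, with a median of 0.04. Both shares lay below those of all genes tested, 9.04% higher and 7.62% lower. The 10 higher genes include Atf3, described below, which passed the filter only through its Dahl S arrays. Among 31 other folding enzymes and chaperones, 3 rose (9.68%), 2 fell (6.45%) and the median was 0.06. The largest rise was that of Ppic, cyclophilin C, a secretory proline isomerase, which read 2260 to 2470 in Lewis and 3870 to 4280 in Dahl S (0.76, SE 0.06, 1.7-fold, adjusted p = 5.2e-06). Serpinh1, the collagen chaperone HSP47, rose by 0.52 (SE 0.11, adjusted p = 0.0056). Pdia5, a disulfide isomerase, read 141, 164 and 254 in Lewis and 64.9, 63.1 and 65.3 in Dahl S. On the log2(signal + 16) scale the difference was -1.29, or 2.45-fold (SE 0.17, adjusted p = 0.00026). Ero1b, an ER oxidase gene, was 1.42-fold lower (-0.51, SE 0.11, adjusted p = 0.0074).

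Degradation and translocation genes outside the members gave 1 call in all at the brightest probe set of each gene. Of 22 other ER-associated degradation genes, 0 were called by limma (the lowest difference was -0.21 and the highest 0.26; 1, Ngly1, had an unadjusted limma p under 0.05). Of 30 other translocation and glycosylation genes, 1 rose (3.33%): Srp14, a signal recognition particle subunit (0.35, SE 0.07, adjusted p = 0.0058). Srp14 missed the threshold at 0.08 with scaling to a common median and at 0.052 with Dahl S array 3 left out. Further probe sets in these lists gave 3 calls, each lower in Dahl S, for Erlec1 (-0.28, adjusted p = 0.023), Bag6 (-0.42, adjusted p = 0.023) and Sgta (-0.41, adjusted p = 0.0048), whose brightest probe sets gave -0.01, -0.17 and -0.26 without passing. Over the 6 lists 5 of 46 further probe sets were lower and 0 higher by limma, beside 7.75% lower and 8.5% higher among all probe sets tested.

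Other sensors and transcription factors, not only those of PERK, were listed next, with targets of ATF4. Among 18 tested sensors and transcription factors 2 rose, Atf4 and Eif2s1 (11.1%, against 9.04% of all genes tested). Atf4, the main effector of PERK, read 1350, 1140 and 1140 in Lewis and 1690, 1560 and 1580 in Dahl S. The Atf4 difference was 0.41 (SE 0.08, 1.33-fold, adjusted p = 0.0042). Eif2s1, the translation factor that PERK phosphorylates, gave 0.41 (SE 0.09, adjusted p = 0.0083), but 0.36 and an adjusted p of 0.055 with Dahl S array 1 left out. Ddit3, which encodes CHOP, did not pass (219, 246 and 225 against 243, 277 and 263; 0.17, SE 0.10, adjusted p = 0.25). Among 15 tested targets of ATF4, 3 rose (20%), 1 fell (6.67%) and the median was -0.03. Among these is Atf3, at 26.1 to 47.8 in Lewis and 121 to 152 in Dahl S, which passed the filter (a signal of 61.6) only through its 3 Dahl S arrays and so had to differ. Its difference is given as a description (1.52), and with no filter the adjusted p was 0.0013. The 20% counts Atf3, so that share rests in part on a call that the filter favoured. Asns and Aars1, described next, are the other targets that rose. Asns, asparagine synthetase, read 114 to 145 in Lewis and 230 to 239 in Dahl S (0.80, SE 0.11, adjusted p = 0.00028). Nupr1, a stress-induced nuclear protein gene, was 1.66-fold lower (-0.73, SE 0.08, adjusted p = 8.8e-05), and Aars1, an alanyl-tRNA synthetase gene, rose by 0.22 (SE 0.07, adjusted p = 0.042; lost in 10 of 15 alternative settings). Trib3 was below the filter on all of its 3 probe sets. Ddit3, Trib3 and Hspa1a, below, were named after their values were seen.

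Heat shock genes outside the ER were measured beside them, mostly cytosolic but with the mitochondrial chaperonin genes Hspd1 and Hspe1 included. Of 22 tested, 1 rose (4.55%, against 9.04% of all genes) and 0 fell, with a median of 0.09. The exception was Dnajb1, an Hsp40 gene (0.26, SE 0.08, adjusted p = 0.036; lost in 10 of 15 alternative settings), and the inducible Hsp70 gene Hspa1a differed by -0.03 (95% interval -0.23 to 0.16).

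**Figure D5:**
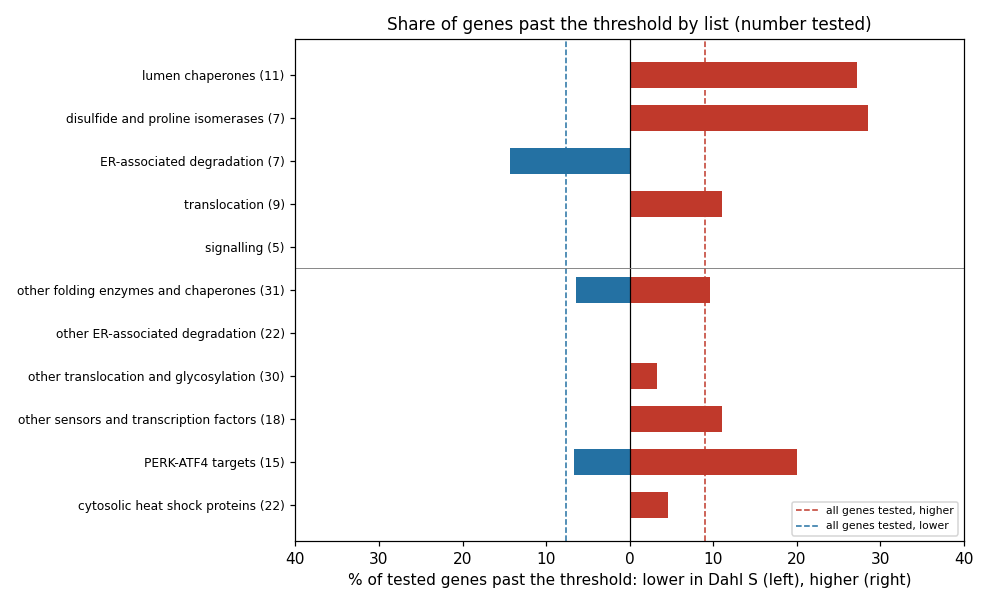
Percentage of tested genes past the threshold, higher in Dahl S to the right and lower to the left, for the 5 member roles (top) and 6 further pathway lists (bottom), with the number of genes tested in parentheses; dashed lines are the shares of all 9540 genes tested, 9.04% higher and 7.62% lower. Chaperones (27.3%) and isomerases (28.6%) lie to the right of the dashed line on few genes, and signalling genes and further degradation genes have no bar. The bar of ATF4 targets counts Atf3, which passed the filter only through its Dahl S arrays.

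Markers of most cell types listed, but not of all, moved with the strains as well. Of 7 tested macrophage markers 7 were higher in Dahl S, and the summed signal of the 8 on the array was 3880 to 4030 in Lewis and 4910 to 5050 in Dahl S. Of 5 tested fibroblast and pericyte markers 4 were higher, with summed signals of 2840 to 3360 and 4990 to 5160 over 6 genes. Proximal tubule markers went the other way, with 4 of 8 lower and summed signals of 36000 to 37200 in Lewis and 32100 to 32300 in Dahl S. Thick ascending limb markers had overlapping sums, 20200 to 21400 in Lewis and 19900 to 20400 in Dahl S. Of these 5 markers 1 was higher (Cldn16) and 1 lower (Kcnj1), with a median difference of 0.01. Plasma cells, which are rich in ER chaperones, were represented by dim genes. Their secretory gene Mzb1 read 29.9 to 39.6 in Lewis and 4.63 to 26.0 in Dahl S and the brighter Jchain probe set 25.5 to 41.3 and 34.0 to 49.2, all below the filter, while Pou2af1 of B cells read 2.29 to 19.2 in Lewis and 66.1 to 71.6 in Dahl S and passed the filter only through its Dahl S arrays. The summed signal of the 7 B and plasma cell markers was 154 to 194 in Lewis and 212 to 243 in Dahl S, and without Pou2af1 147 to 175 and 140 to 177, which overlap. Summed signals also had separate ranges for T cell markers (236 to 278 in Lewis, 341 to 354 in Dahl S), erythrocyte markers (3980 to 5140 and 5720 to 6250, with 3 of 3 higher), podocyte markers (1820 to 1870 and 1410 to 1450), endothelial markers (2660 to 2960 and 2450 to 2640) and distal tubule and collecting duct markers (12600 to 13400 and 11400 to 11600). The endothelial markers went both ways: of 5 tested, 1 was higher in Dahl S (Vwf, 0.46) and 2 were lower (Pecam1, -0.40, and Emcn, -0.36). Of 4 podocyte markers tested, 2 were lower (Podxl, -0.79, and Wt1, -0.36). The brightest probe sets of Nphs1 (-0.10) and Synpo (-0.04) had overlapping ranges, and the podocyte sum fell mainly through Podxl, at 798 in Lewis and 454 in Dahl S on average. The dim adrenal cortex markers, given above, had separate summed ranges too, with Dahl S above. T cell markers were mostly dim as well: of 6 on the array 2 were tested. Lck was higher (0.54, adjusted p = 0.019 by limma) and Cd4 did not pass (0.10, adjusted p = 0.66). Lum among the fibroblast calls passed the filter only through the Dahl S arrays. The part of these cell types in the member differences was not tested.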

How the data were processed

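Each of 6 rats, 3 per strain, gave 1 kidney RNA sample on its own 1-colour array. The deposited values are linear signal intensity per probe set, made by the authors with GeneChip Operating Software 1.4 per the labels; their scaling target is not given in the sources used here. Control probe sets were dropped, log2(signal + 16) was quantile normalized, and a probe set was kept if at least 3 of its 6 values exceeded the median over the whole table. Strains were compared with limma 3.58.1 in R 4.3.3 (variance trend, Benjamini-Hochberg over all 15797 probe sets tested), after tests on simulated data. A gene is its brightest tested probe set. An exact permutation test of 3 against 3 cannot go below p = 0.1. The number of arrays limits the precision. Of the probe sets, 20826 have 1 gene symbol, 436 several and 9780 none; only the first were named.

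Members and lists were chosen with earlier results of these data known. All arrays were given for members past the threshold, Hspa5 and the signalling genes, and up to 4 called genes of each pathway list were named by smallest adjusted p; Erp29, called but outside this rule, is only counted. Alternatives covered normalization, pseudocounts of 1 and 64, filters, the probe set rule, the variance trend, a replicate block and each array left out.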

Additional observations from a re-analysis of the deposited data

How the results depend on the processing

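Of the 15 alternatives, those on scaling moved the member counts most. With no normalization between arrays 0 members were higher and 0 lower, with a median of 0.52, and with scaling to a common median 2 were higher and 0 lower. Sel1l turned to 0.09 and the further Canx probe set to 0.14 with no normalization, where the median of all genes was 0.41. The count of lower members was 0 with no filter and 0 with no variance trend. Averaging a gene's probe sets gave a median of 0.07. Leaving out 1 array at a time gave 4 to 7 higher members, 0 to 2 lower members and medians of 0.06 to 0.12; Hspa5, Hsp90b1, Pdia3 and Sec61b passed in each of these 6 fits. Over all genes these fits called 433 to 903 higher and 414 to 783 lower. Deviations from the strain mean correlated at -0.05, -0.10 and 0.11 for same-numbered arrays and at -0.07 to 0.13 for differently numbered ones. With so few arrays these values cannot decide whether a replicate number pairs rats. With the replicate block 4 members were higher and 0 lower, with a median of 0.11. Xbp1, Atf6, Eif2ak3, Ppp1r15a and Wfs1 passed in 0 of 15 alternatives. The cause of each change was not tested. With 3 arrays per strain, differences near the SE of the dimmer genes were not detectable.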
